A study of Mus musculus with 2 samples.

Results

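Broad H2BK120ub domains of WT liver cells in which no peak was found in UBR7-KO liver cells are described here. H2BK120ub, histone H2B carrying a single ubiquitin at lysine 120, was mapped by ChIP-seq, the sequencing of DNA that an antibody to the mark pulls down, in 1 WT library and 1 Alb-Cre;UBR7fl/fl library (UBR7-KO). By the labels and the study's methods, the cells were primary liver cells of male mice aged 8 weeks on a C57BL/6 background, which the labels also call conditionally immortalized. In UBR7-KO, floxed UBR7 is removed by Cre under the albumin promoter, which acts in hepatocytes. Other cells of the preparation may keep the gene, which was not tested. Peaks are reported in coordinates of the human build hg19, which the authors used for alignment although the samples are labelled as mouse. Whether mouse reads were placed on the human genome or the lists come from human material was not tested, and every position and length below is subject to this.

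The domains were selected by position and length. A broad domain is a peak of over 10000 bp, and it counted as unmatched when no UBR7-KO peak overlapped it by 1 bp. Chromosomes 19, X and Y were left out. Among 101866 WT peaks, 6922 on the remaining 21 chromosomes were broad, and 1057 of these were unmatched, a share of 15.3% (95% Wilson interval 14.4 to 16.1, which covers counting error only). Among WT peaks of any length on the same chromosomes, 60.1% had no UBR7-KO peak (58082 of 96626). The rule itself sets these counts, so they describe the 2 libraries and show no effect of genotype. With 1 library per genotype there is no replicate error and no test was run.

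H2B is ubiquitinated as RNA polymerase II moves along a gene, mainly by the RNF20 and RNF40 ligases, and the mark therefore spreads over the bodies of transcribed genes. It is linked to methylation of histone H3 at gene starts and along gene bodies, and it is removed by deubiquitinating enzymes of the SAGA complex. UBR7 carries a PHD finger and was described as a further E3 ligase for H2B. A mark that spreads along genes gives wide peaks. Neither genes nor base sequence under the domains were analysed here, as no annotation of hg19 was used.

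The depth of the libraries is known only on the scale of the peak caller. The lowest pileup of a listed peak, which is the caller's signal from fragments stacked over it and need not be a whole number, was 4.62 in the WT list but 3.32 in the UBR7-KO list. The lowest fold enrichment was 2 in both. The median pileup was also lower in the UBR7-KO list, 4.41 against 6.45 in the WT list. So was the low end of the background recovered from pileup and fold enrichment, 1.16 against 1.81. Fold enrichment is pileup plus 1 over background plus 1, as MACS defines it. At a lower background, a value of 2 thus asks for a higher ratio of pileup to background. A domain without a UBR7-KO peak is thus a place where the second library gave no called peak at a fold enrichment of 2 or more, and weaker signal there is not visible in the lists. A difference in depth between the libraries and a difference between the genotypes cannot be told apart.

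The same rule was applied with the lists exchanged. On the same chromosomes, 259 of 4182 UBR7-KO broad domains had no WT peak, a share of 6.19% (interval 5.50 to 6.96). Among UBR7-KO peaks of any length the share was 65.2%. Unmatched broad domains were hence more frequent in the WT list, although peaks of any length lacked a counterpart slightly more often in the UBR7-KO list. The unmatched UBR7-KO domains had a median length of 11417 bp and a longest of 30610 bp, so they were also shorter than the unmatched WT domains.

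The unmatched WT domains had a median length of 12926 bp (quartiles 11288 and 16489 bp). Their lengths ran from 10003 to 46995 bp. The 5865 WT broad domains that did overlap a UBR7-KO peak had a median length of 16154 bp (quartiles 12336 and 24016 bp) and reached 230695 bp. Together the unmatched domains covered 15.6 Mb, which was 11.2% of the length of all WT broad domains on these chromosomes. They were thus a group from the short end of the broad domains.

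The share without a UBR7-KO peak fell with each step in length. It was 23.2% (387 of 1670) at 10 to 12 kb and 20.3% (330 of 1624) at 12 to 15 kb. At 15 to 20 kb it was 14.4% (210 of 1458), and at 20 to 30 kb it was 8.54% (105 of 1229). Between 30 and 50 kb, 25 of 661 domains (3.78%) were unmatched. Over 50 kb there were 0 of 280, which allows a share of up to 1.07%. A longer domain offers more positions to an overlapping peak, and how much of the fall comes from this was not tested.

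At matched length the WT share exceeded the UBR7-KO share. In the other direction, 12.5% (158 of 1265) of UBR7-KO domains of 10 to 12 kb had no WT peak, and 6.44% (71 of 1103) of those of 12 to 15 kb. At 20 to 30 kb the UBR7-KO share was 0.675% (4 of 593). The Wilson intervals of the 2 lists did not meet in any class up to 50 kb.

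**Figure D1:**
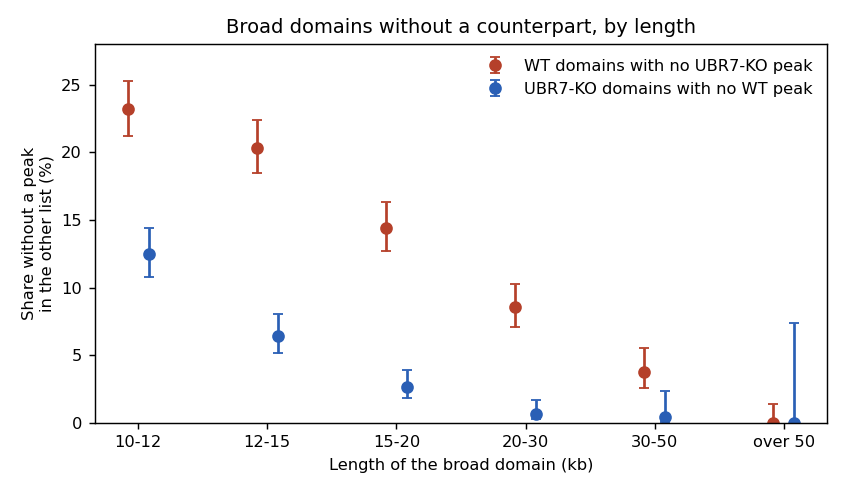
Share of broad domains without a peak in the other list (percent, y axis) in 6 length classes (kb, x axis), for WT domains (red) and UBR7-KO domains (blue), with 95% Wilson intervals as bars. The WT share fell from 23.2% at 10 to 12 kb to 0 over 50 kb and stood above the UBR7-KO share in each class up to 50 kb. The lists differ in the number and cover of their peaks.

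The longest unmatched domain lay on chromosome 10 (126205238 to 126252232) and spanned 46995 bp. Its fold enrichment was 2.59, rank 12119 in the WT list, and the nearest UBR7-KO peak was 2963 bp away. A further domain of 35739 bp lay on the same chromosome (126681507 to 126717245), at rank 16862, with its nearest UBR7-KO peak 19471 bp away. These domains, less than 1 Mb apart, belonged to the better ranked part of the list. Both had a high pileup, 11.86 and 11.82, against a median of 7.11 over the unmatched domains, and a high background, 3.96 and 4.12, against a median of 2.63. The third on chromosome 10 (71681361 to 71717596) spanned 36236 bp and was weak, with a fold enrichment of 2.11 and rank 69724.

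The other domains among the 8 longest lay on chromosomes 22, 17, 1, 7 and 16. The domain on chromosome 22 (35709670 to 35753729) spanned 44060 bp, with rank 16365 and a UBR7-KO peak 3746 bp away. The domain on chromosome 17 (48685113 to 48725330) spanned 40218 bp, with rank 27853 and a distance of 7052 bp. Both ranked above the middle of the WT list, whereas the domain on chromosome 1 (9506133 to 9545442; 39310 bp) ranked 67473 and lay 7184 bp from a UBR7-KO peak. The domain on chromosome 7 (73095950 to 73134287) spanned 38338 bp, with rank 32460 and a distance of 2252 bp. The domain on chromosome 16 (81505857 to 81540390) spanned 34534 bp, with rank 61993 and a UBR7-KO peak at 1206 bp. Great length therefore did not go with one level of fold enrichment.

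The surroundings of the 8 longest domains were not free of UBR7-KO peaks. Within 100 kb on either side of the domain centre, 8 to 12 UBR7-KO peaks were listed. Since the rule fixes the cover of the domain itself, only the rest of the window was compared. There UBR7-KO peaks covered from 9.96% to 45.3% and WT peaks from 27.8% to 78.8%, and the WT cover was the higher at each of the 8. The rest of the window still holds the gaps from each domain to its nearest UBR7-KO peaks. WT cover was also the higher around WT broad domains with a UBR7-KO peak. In the 100 kb on each side of those, the medians were 48.7% for WT and 31.4% for UBR7-KO peaks.

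**Figure D2:**
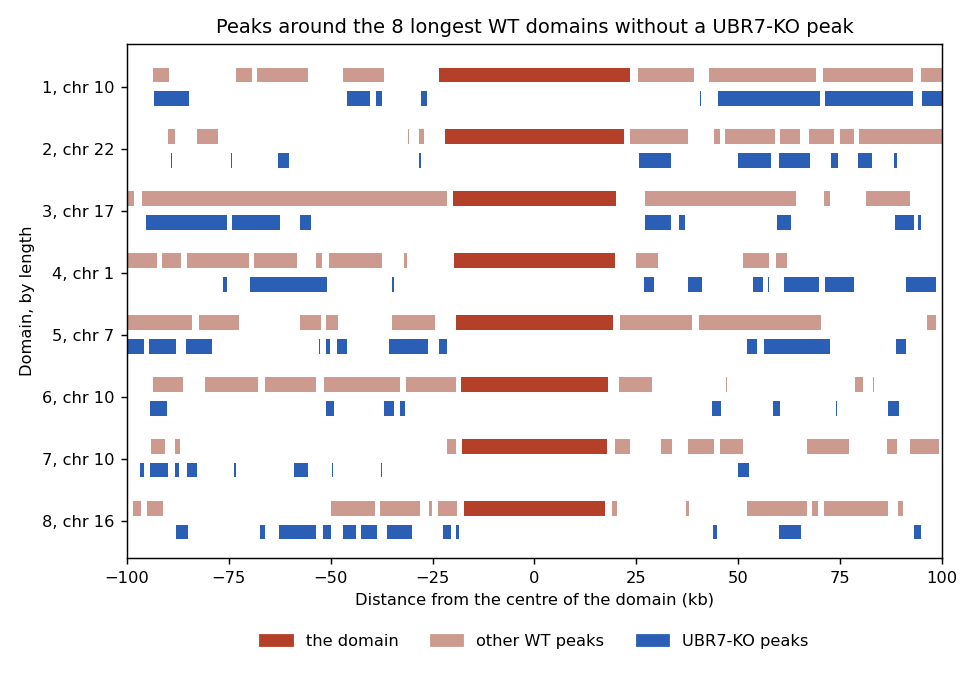
Peaks within 100 kb of the centre of each of the 8 longest unmatched WT domains, ordered by length from 46995 to 34534 bp (x axis, distance from the domain centre in kb; y axis, domains with their chromosome). The domain is dark red, other WT peaks are light red and UBR7-KO peaks are blue; 8 to 12 UBR7-KO peaks flank each domain, and by the rule none lies under it.

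The fold enrichment, the pileup of a peak plus 1 over a background set by the caller plus 1, was next ranked over all 101866 WT peaks. Rank 1 is the highest. The median rank of the unmatched domains was 47632 (quartiles 29323 and 69476), near the middle of the list. Their median fold enrichment was 2.22, with a range from 2.0003 to 3.11. WT broad domains with a UBR7-KO peak ranked higher, with a median rank of 32609 and a median fold enrichment of 2.33. Of the unmatched domains, 464 (43.9%) were in the lower part of the WT list, against 27.6% of those with a UBR7-KO peak. Among the 10000 best ranked WT peaks there were 29 unmatched domains (2.74%) and 648 of the matched ones (11.05%).

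**Figure D3:**
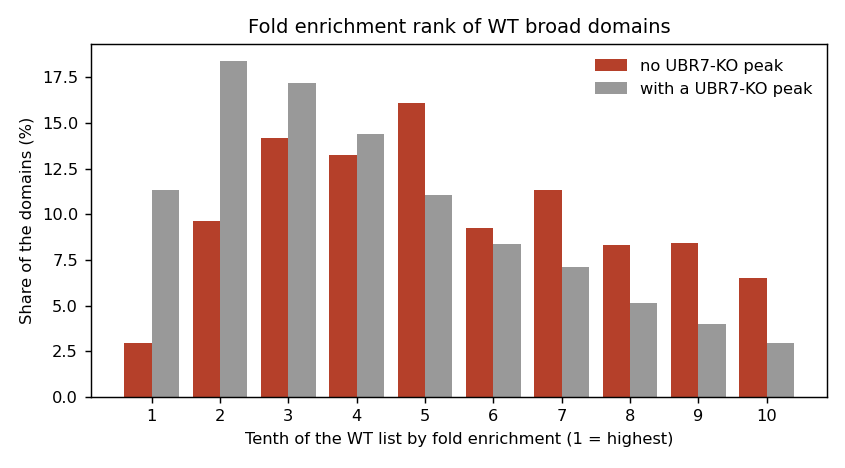
Share of WT broad domains (percent, y axis) in 10 equal bins of the WT list by fold enrichment (x axis, 1 is the highest), for the 1057 domains without a UBR7-KO peak (red) and the 5865 with one (grey). The first bin held 2.93% of the unmatched and 11.4% of the matched domains, and the last bin held 6.53% and 2.93%.

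Next, all WT broad domains were split into 5 groups of equal size by fold enrichment, and the share without a UBR7-KO peak fell from each group to the one above it. In the lowest group (fold enrichment up to 2.14) it was 24.7% (342 of 1385), and in the highest group (2.52 to 3.21) it was 5.92% (82 of 1385). The unmatched domains were also shorter, so the shares were taken again within narrow ranges of length. Among domains of 10 to 12 kb, the lowest group held 26.05% unmatched domains (interval 21.6 to 31.0) and the highest 16.8% (interval 13.1 to 21.1). Among domains of 20 to 30 kb, the values were 15.4% (38 of 246, interval 11.5 to 20.5) and 2.44% (6 of 246, interval 1.12 to 5.22). The highest group had the lowest share in both ranges, but the groups between did not fall in steady steps.

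The pileup gave a smaller difference at equal length. Among domains of 10 to 12 kb, 25.4% of the lowest group by pileup and 23.1% of the highest were unmatched, with intervals that overlapped. Among domains of 20 to 30 kb, the shares were 13.0% (32 of 246, interval 9.37 to 17.8) and 7.32% (18 of 246, interval 4.68 to 11.3), and these intervals overlapped too. The background in the WT list at the domains, recovered from pileup and fold enrichment, had a median of 2.63 at the unmatched and 2.64 at the matched domains. At lengths of 10 to 15 kb the medians were 2.60 and 2.57, with overlapping intervals, and the means 2.69 and 2.64. Fold enrichment is set by pileup and background together, and the part of each in its difference was not tested.

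The 5 best ranked unmatched domains were mostly near the length threshold. The first lay on chromosome 11 (3106402 to 3116539; 10138 bp) with a fold enrichment of 3.11 and rank 1735. The second lay on chromosome 16 (916481 to 933535) with a length of 17055 bp, a fold enrichment of 3.05 and rank 2103. The third lay on chromosome 20 (61074048 to 61084150; 10103 bp), with a fold enrichment of 3.01 and rank 2509. These were the only unmatched domains with a fold enrichment of at least 3. Each had a UBR7-KO peak close by, at 2490, 1621 and 1559 bp.

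The fourth, on chromosome 16 (4723136 to 4752638), joined length and rank, with 29503 bp and rank 4776. The nearest UBR7-KO peak was 3707 bp away on one side, but on the other side none was listed for 47542 bp. The fifth lay on chromosome 6 (170022709 to 170033487; 10779 bp) at rank 4961, with UBR7-KO peaks 10292 and 11976 bp away. All 5 were among the top 4.87% of the WT list by fold enrichment.

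The distance from an unmatched domain to the nearest UBR7-KO peak, measured from edge to edge, had a median of 4230 bp (quartiles 1995 and 8729 bp). It was shorter than the domain itself in 922 of 1057 cases (87.2%). Within 1000 bp of the edge, 74 domains (7.00%) had a UBR7-KO peak, and within 5 kb 583 domains (55.2%) had one. More than 10000 bp separated 218 domains (20.6%) from any UBR7-KO peak, and more than 20000 bp 58 domains (5.49%). Shorter unmatched WT peaks lay farther off, with a median distance of 7956 bp for peaks up to 1000 bp and 5470.5 bp for peaks of 3000 to 10000 bp. Most unmatched broad domains therefore had a UBR7-KO peak at less than their own length. That length is over 10000 bp by the rule, and the space between neighbouring UBR7-KO peaks had a median of 11056 bp. A longer peak also leaves less room in such a space. The part of length in these distances was not tested.

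**Figure D4:**
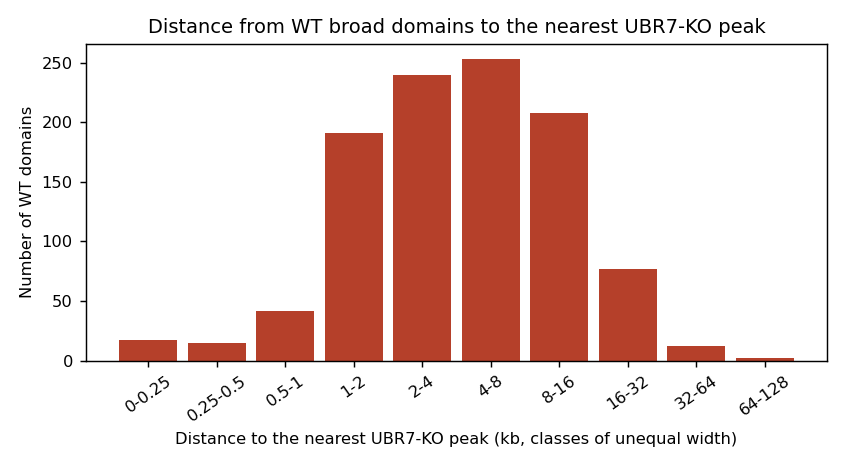
Number of unmatched WT broad domains (y axis) by the distance to the nearest UBR7-KO peak (kb, x axis, classes of unequal width). The class from 4 to 8 kb was the fullest with 253 domains, and 14 domains lay at 32 kb or more.

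The nearest cases were at the edge of the rule. A domain on chromosome 6 (30875538 to 30894476; 18939 bp) had a UBR7-KO peak 10 bp away. A domain on chromosome 2 (219181412 to 219197905; 16494 bp) had one at 27 bp, and a domain on chromosome 1 (201027374 to 201044712; 17339 bp) at 34 bp. In all 3 the other side was free for 24830, 31604 and 18191 bp, so the UBR7-KO peak ended beside the domain. Domains on chromosome 22 (30775161 to 30788869) and chromosome 5 (171599079 to 171611432) each had a UBR7-KO peak at 54 bp.

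The farthest case lay on chromosome 2 (102594614 to 102606452; 11839 bp). Its nearest UBR7-KO peak was 82239 bp away, but the domain was weak, with a fold enrichment of 2.04 and rank 88211. A cluster of 3 domains on the same chromosome followed, at 110251959 to 110262764, 110264422 to 110275469 and 110278499 to 110290017. They shared a stretch of 247805 bp without a UBR7-KO peak (110088956 to 110336760), the longest that held an unmatched domain. Their distances were 73996, 61291 and 46743 bp and their ranks 71397, 24086 and 23253. Unlike most of the group, these 3 stood in a region with few other WT peaks, since 4 WT peaks in all filled 14.0% of the stretch. Unsequenced parts of hg19, where no peak can be called, were not taken into account. The stretch may therefore be shorter in sequenced bases and its filled share higher. A domain of 10490 bp on chromosome 8 lay 54319 bp from a UBR7-KO peak at rank 41902.

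The domains were next assigned to the stretches between neighbouring UBR7-KO peaks. They occupied 988 stretches, of which 927 held 1 unmatched domain, 53 held 2 and 8 held 3. Domains in a shared stretch numbered 130 (12.3%) and are not independent. The stretch around a domain had a median width of 35879 bp, against 11056 bp over all stretches between neighbouring UBR7-KO peaks. A stretch that holds a domain must exceed 10000 bp by the rule, so the widths are not directly comparable. The domain filled a median of 40.5% of it. In 354 cases (33.5%) the domain filled more than 50% of the stretch. With the other WT peaks included, a median of 53.1% of each stretch was covered in the WT list.

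The 8 stretches with 3 unmatched domains lay on chromosomes 2, 6, 12, 16, 17 and 22. In 7 of them, all but the stretch on chromosome 2, WT peaks covered from 65.3% to 83.1% of the stretch. The highest coverage was on chromosome 12 (3319117 to 3378751), where 43650 bp of unmatched domains stood in 59635 bp. On chromosome 16 (11683440 to 11776405), 3 domains of 65342 bp in all stood in 92966 bp without a UBR7-KO peak. On chromosome 6 (31582341 to 31695874), 57338 bp stood in 113534 bp. On chromosome 22 (38600108 to 38657971) the 3 domains were the only WT peaks of the stretch and covered 77.8% of it. A stretch holds no UBR7-KO peak by definition, and these were picked for holding 3 WT domains, which raises the WT cover.

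The peaks next to the domains were examined in both lists. The 1028 UBR7-KO peaks nearest to an unmatched domain were longer than UBR7-KO peaks in general, with a median of 3306.5 bp against 1359 bp. Of these, 687 (66.8%) overlapped another WT peak, against 34.8% of all UBR7-KO peaks on these chromosomes. Longer peaks overlap more often, and the part of length in this difference was not tested. In the WT list, 1108 of 2114 peaks next to an unmatched domain (52.4%, interval 50.3 to 54.5) overlapped a UBR7-KO peak. Next to matched domains the share was 66.6% (interval 65.7 to 67.4), and 63.0% next to those of 10 to 15 kb. A peak next to an unmatched domain can lie in the same stretch without a UBR7-KO peak, or be an unmatched domain itself. The rule thus lowers the first share, and by how much was not tested. The space between a domain and the nearest WT peak was similar, with a median of 1717 bp for unmatched and 1617 bp for matched domains.

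The wider surroundings were less covered around unmatched domains. In the 100 kb on each side, UBR7-KO peaks covered a median of 24.6% (quartiles 17.2 and 34.5) around unmatched and 31.4% (quartiles 20.7 and 45.3) around matched domains. WT peaks covered a median of 42.5% and 48.7%, respectively. At lengths of 10 to 15 kb, the UBR7-KO medians were 23.2% and 27.8% and the WT medians 40.9% and 43.3%. The quartiles overlapped widely in each case. By the rule, no UBR7-KO peak can run from an unmatched domain into its flank, which lowers the UBR7-KO cover there. How much of the difference comes from this was not tested. Thus the unmatched domains were not isolated, and the flanks held peaks of both libraries.

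Unmatched domains were rarer near chromosome ends. In the outer 2 Mb of the chromosomes, 74 of 939 WT broad domains (7.88%, interval 6.32 to 9.78) had no UBR7-KO peak, against 983 of 5983 (16.4%, interval 15.5 to 17.4) farther inside. Among domains of 10 to 15 kb the shares were 13.8% (51 of 369, interval 10.7 to 17.7) and 22.8% (666 of 2925, interval 21.3 to 24.3). The order was the same within this range of length.

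By chromosome, the share of WT broad domains without a UBR7-KO peak was highest on chromosome 10, with 78 of 343 (22.7%, interval 18.6 to 27.5). Chromosome 6 followed with 48 of 221 (21.7%, interval 16.8 to 27.6) and chromosome 3 with 56 of 266 (21.1%, interval 16.6 to 26.3). These 3 were the only chromosomes whose interval lay above the pooled 15.3%, and their intervals overlapped each other. The lowest share was on chromosome 4, with 15 of 165 (9.09%, interval 5.59 to 14.5), the only interval below the pooled share. Intervals on the other 17 chromosomes included it. Chromosomes are not replicates, and chromosomes with overlapping intervals are not ordered by these counts.

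The length of the domains bears on this order. Broad domains on chromosomes 10 and 6 were short, with medians of 14019 and 13602 bp, and those on chromosome 4 were long, with a median of 17323 bp. Among domains of 10 to 15 kb, chromosome 10 still had the highest share, 29.7% (58 of 195, interval 23.8 to 36.5), against 21.8% over all chromosomes. Chromosome 6 was at 25% and chromosome 3 at 24.4%, with intervals that included the pooled value. Chromosome 4 was at 18.0% (11 of 61, interval 10.4 to 29.5) and no longer stood below it. The WT background was also uneven along chromosome 10. It was 3.96 and 4.12 at the unmatched domains starting at 126205238 and 126681507, and high at many others nearby. At those starting at 5981226 and 71681361 it was 2.58 and 2.68. Over these chromosomes, the share was 15.5% in the lowest of 5 groups by background and 16.5% in the highest, with overlapping intervals. The part of background in the share on chromosome 10 was not tested.

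**Figure D5:**
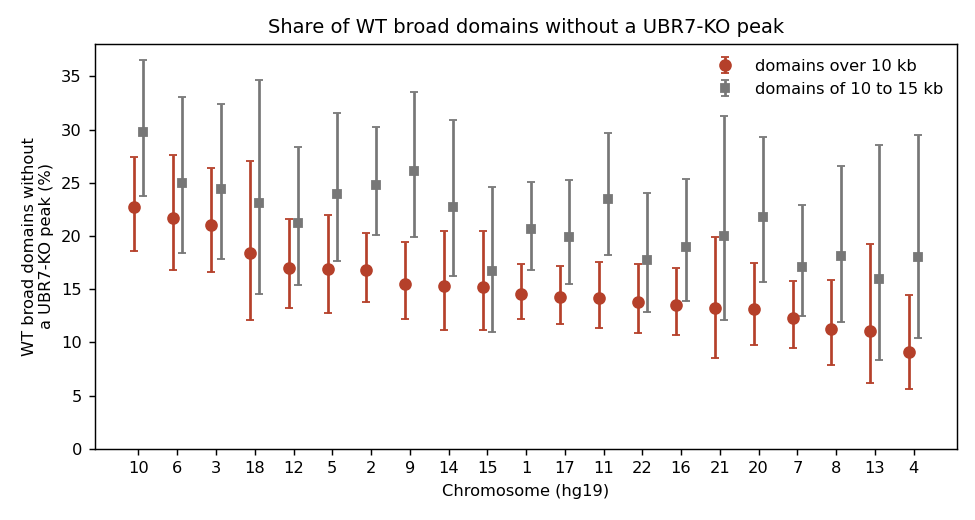
Share of WT broad domains without a UBR7-KO peak (percent, y axis) on 21 autosomes ordered by the share (x axis), for domains over 10 kb (red circles) and for those of 10 to 15 kb (grey squares), with 95% Wilson intervals. Chromosome 10 was highest in both, at 22.7% and 29.7%, and most intervals overlapped.

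In number, the unmatched domains followed the broad domains. Chromosome 1 held the most, 108, followed by chromosome 17 with 91, chromosome 2 with 84 and chromosome 10 with 78. These 4 chromosomes held 34.2% of the unmatched domains and 32.1% of all WT broad domains. Per length of chromosome, chromosome 22 with 115 and chromosome 17 with 112 unmatched domains per 100 Mb were the densest, and chromosome 4 with 7.85 was the sparsest.

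The values on either side of the thresholds were close. The shortest unmatched domains spanned 10003 bp on chromosome 10 (5981226 to 5991228), 10005 bp on chromosome 15 (66474246 to 66484250) and 10007 bp on chromosome 4 (912961 to 922967). The longest WT peaks without a UBR7-KO peak that missed the length spanned 9998, 9995 and 9992 bp, on chromosomes 7, 6 and 12. On the side of the overlap, a domain of 27429 bp on chromosome 17 (37012644 to 37040072) counted as matched through 6 bp. Domains on chromosome 22 (45494011 to 45504070) and chromosome 20 (61516223 to 61526678) did so through 8 and 11 bp. In 388 of the 5865 matched domains (6.62%), UBR7-KO peaks covered less than 10% of the domain, while in 3432 (58.5%) they covered more than 50%.

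The number of unmatched domains depended strongly on which UBR7-KO peaks were admitted. With the UBR7-KO list limited to a fold enrichment of 2.2 or more, 4142 WT broad domains (59.8%) had none. With that list limited to its strongest peaks, as many as the WT list holds, 1743 (25.2%) had none. The domains added in the first case overlapped only UBR7-KO peaks with a fold enrichment under 2.2, and the median over all UBR7-KO peaks on these chromosomes was 2.15.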

How the data were processed

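The authors aligned ChIP-seq reads to hg19 and called peaks with MACS in each library separately, under a q-value threshold of unstated value. The methods name BWA aln as aligner, whereas the submitters' processing notes name Bowtie 1.1.2. The methods name rabbit IgG beside the antibody, but a control library and the mode of the caller are not given in the sources used here. The methods also describe a list of peaks that were repeated. How the deposited lists, 1 per library, relate to it is not stated. The deposited pileup is a signal from stacked fragments, and the deposited fold enrichment is a ratio to a background whose source, the library itself or a control, is not stated. Lengths in bp are as deposited.

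The UBR7-KO list held 6 blank rows, which were dropped. Python 3.11.15 with scipy 1.17.1, pandas 2.3.3 and numpy 2.4.6 gave overlaps, distances and coverage, by code tested on simulated data against bedtools 2.31.1. Chromosome lengths came from GenomeInfoDb 1.38.1 (R 4.3.3). The background was recovered on the assumption that fold enrichment is pileup plus 1 over background plus 1, as MACS defines it. Positions count from 1. Domains named are the 8 longest, the 5 best by fold enrichment rank, the 5 farthest from and the 5 nearest to a UBR7-KO peak, and 3 at each side of a threshold. The stretches with 3 domains were added after their values were seen. Members and lists were chosen with earlier results of these data known. Genes, gene lists and sequence were not analysed, since no annotation of hg19 was used here, and positions on chromosome 8 are not reported here.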

Additional observations from a re-analysis of the deposited data

How the results depend on the processing

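With 1 library a genotype, no value has a replicate error and leaving out a replicate was not possible. No paired analysis was possible because the 2 libraries form a single pair. The planned overlap with genes was not run, since no annotation of hg19 was used here. The cause of the shifts below was not tested, except where a threshold itself lowers the number of domains.

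The number of unmatched domains, 1057 of 6922, became 1750 at a length over 8000 bp, 340 over 15000 bp and 130 over 20000 bp. It was 474 with no UBR7-KO peak within 5 kb and 94 at a WT fold enrichment of at least 2.5. It rose to 1743 with a UBR7-KO list of the size of the WT list, and to 4142 with UBR7-KO peaks of a fold enrichment of at least 2.2. A WT pileup of at least 3 times the background left 140, chosen after seeing the data. With that threshold on both lists, also chosen after seeing the data, the number was 990, but of fewer domains, so that the share was 51.4%. The count stayed within 1.5 times with no UBR7-KO peak within 1000 bp (983), UBR7-KO cover under 10% not counted (1445), WT peaks within 5 kb merged (1106) and chromosomes 19, X and Y added (1142).

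The median length was 18646 bp over 15000 bp and 13228 bp after merging, which was within the interval of the median. The median rank by pileup was 32399, and 4605 among WT broad domains alone, against 23491 and 3240 for matched domains. The median distance was 11824.5 bp from the domain centre and 5775 bp with the shorter UBR7-KO list. The share on chromosome 10 was 13.5% over 15000 bp, 9.33% with no UBR7-KO peak within 5 kb and 29.7% at 10000 to 15000 bp. Under the first 2 settings other chromosomes were highest, 3 with 17.8% and 18 with 11.7%. The share on chromosome 4 was 3.85%, 2.42% and 18.0% under these settings, and at 10000 to 15000 bp chromosome 13 was lowest with 16%. Unmatched UBR7-KO domains over 15000 bp numbered 30, or 1.65%.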
